A study of Mus musculus with 8 samples.

Results

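The genes described here are the peroxiredoxins Prdx1 to Prdx6, the thioredoxins Txn1 and Txn2, the glutaredoxin gene Glrx and the thioredoxin-binding gene Txnip, measured in mouse hippocampus. They were chosen by name: every spot that is not a control and whose accession carries the symbol of a member was taken. This gave 15 probes in 24 spots for the 10 members, out of 55681 probes in 59305 spots per array. All 10 genes were among the 27155 genes and unnamed transcripts that were tested.

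Peroxiredoxins are small enzymes that remove hydrogen peroxide and organic peroxides with a reactive cysteine. In most of them the oxidised cysteine is returned to its working form by thioredoxin, which is in turn reduced by a thioredoxin reductase at the expense of NADPH. Glutaredoxin reverses the coupling of glutathione to protein cysteines, and the alpha-arrestin Txnip binds reduced thioredoxin and limits its action. In the brain these proteins are known for protecting neurons against oxidants, and Prdx6 is abundant in astrocytes.

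The study crossed mild treadmill exercise with a diet supplement of astaxanthin, a red carotenoid antioxidant from the alga Haematococcus pluvialis, and its title asks about hippocampal leptin, neurogenesis and memory. The mice were C57BL/6J males, 11 weeks old when obtained, with 8 per group, and in every group 0.5% of the food was a supplement powder. The group SED was sedentary on the placebo powder and ME did mild exercise on placebo. The group AX was sedentary on powder with 2% astaxanthin, and AX+ME had both exercise and astaxanthin. Each group is represented by 2 samples of hippocampal RNA, 1 labelled with Cy3 and 1 with Cy5, each alone on 1 of the 8 arrays of a slide. How 8 mice became 2 samples is not stated, so p-values measure the spread between these samples alone, and that spread may be technical. On the slide each column of arrays holds 1 group and each row 1 dye, so a place effect between columns and a group effect cannot be told apart.

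Levels below are the processed signal of the sample's own dye divided by the 75th percentile of that array, called relative signal. Values for a dye are given in the order SED, ME, AX, AX+ME throughout. Each probe has its own efficiency, so levels are compared between samples and never between probes. All 15 probes were well above background on all 8 arrays, and none of their spots was well above background in the empty dye. The 75th percentile itself ran from 1420 to 2319 intensity units, and correlations between arrays over all genes lay between 0.986 and 0.998. Of 9 listed hippocampal neuron markers, all 9 were tested, with a summed relative signal of 54.6 to 55.8 in SED and 46.8 to 50.8 in the other groups. A sum follows the brightest markers: the list's median log2 difference from SED was 0.00 in ME, 0.05 in AX and 0.08 in AX+ME. In the sums of 7 of 11 marker lists, microglia among them (46.6 to 46.7 in SED, 39.3 to 42.5 elsewhere), both SED samples lay above all others. The median differences of these lists did not all go that way. Of 9 choroid plexus markers, 6 were called lower in ME than in SED and 8 in AX+ME, with summed relative signals of 49.9 to 65.1 in SED, 45.3 to 54.9 in ME, 50.1 to 58.6 in AX and 47.5 to 49.5 in AX+ME. Of 4 tested pituitary markers, 3 were called lower in ME than in SED, with a median difference of -1.37. Of 3 tested red blood cell markers, 1 was called higher and 2 lower in AX+ME. No other marker list of cell types had more than 2 called genes in a comparison with SED. The part of these cell types in the members' values was not tested. In bulk tissue, fewer cells of a type and less RNA per cell cannot be told apart.

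Both SED arrays had dim areas in the array columns below 70. There, 18.7% of well-measured spots in Cy3 and 26.1% in Cy5 were lower in SED by more than 0.3 on the log2 scale, against 4.29% and 3.63% from column 70 on. Other spots there ran higher in SED, as around Prdx5 and a probe of Prdx6. Of the probes described here, 7 lay below column 70 and 7 from column 70 on. The probe of Prdx3 had spots on both sides. The column is therefore given with each probe, and the median SED gap of the spots within 4 rows and 4 columns is set beside the probe's own gap. The SED gap is the log2 level in SED minus the mean of the other 3 groups within a dye.

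Promoter sequences are shown for Prdx1 and Txnip, because each carries a short motif of a regulator these genes are known for. NRF2, the main activator of antioxidant genes, binds motifs of the form TGACNNNGC, and the glucose-sensing factors that drive Txnip bind paired E-boxes such as CACGAG. RefSeq promoter windows (assembly GRCm38.p6, 250 bases before to 50 after the start) were found for 9 of the 10 members, and each motif was searched on both strands. TGACNNNGC was present in the window of Prdx1 alone among the members, on the minus strand 133 bases before the start, and in 12.39% of all 32851 windows. CACGAG was present 2 times in the window of Txnip, 85 and 74 bases before the start, and in no other member, while 6.475% of all windows held it and 0.3592% held 2 or more copies. The palindrome CACGTG was present in the window of Prdx4, 52 bases before the start, and in 7.15% of all windows. A match is a description of these letters and not of binding. The 250 bases before the start are printed 5′ to 3′, with the motif in capitals, for Prdx1 at chr4:116685349-116685598 and Txnip at chr3:96557707-96557956, both on the plus strand.
Prdx1: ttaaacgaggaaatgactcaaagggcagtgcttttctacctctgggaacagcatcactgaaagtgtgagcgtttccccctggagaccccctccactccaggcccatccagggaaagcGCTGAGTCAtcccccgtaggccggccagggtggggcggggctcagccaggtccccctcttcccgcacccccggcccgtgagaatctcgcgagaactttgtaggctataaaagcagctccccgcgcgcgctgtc
Txnip: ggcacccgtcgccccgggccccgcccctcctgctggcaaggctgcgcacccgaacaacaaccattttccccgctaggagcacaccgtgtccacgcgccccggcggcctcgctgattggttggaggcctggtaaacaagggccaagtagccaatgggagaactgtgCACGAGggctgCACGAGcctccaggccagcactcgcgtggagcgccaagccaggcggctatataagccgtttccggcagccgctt

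None of the 10 members passed the test in any of the 9 comparisons (limma with a term for dye, Benjamini-Hochberg adjustment over all genes, threshold 0.05). Against SED, limma called 3.09% of all genes in ME, 3.6% in AX and 7.18% in AX+ME. At an unadjusted p under 0.05 the members counted 2, 3 and 3 of 10 in these comparisons, where 24.3%, 26.5% and 32.1% of all genes did. Among AX+ME, ME and AX themselves limma called 0% of all genes, and no member had an unadjusted p under 0.05, against 8.28% of genes for AX+ME minus ME, 6.08% for AX+ME minus AX and 7.2% for ME minus AX. The interaction called 0.545% of genes, the main effect of exercise 0.737% and that of astaxanthin 0.843%, and each of these held 2 members at an unadjusted p under 0.05, against 14.7%, 19.4% and 25.1% of genes. These shares of members lie near the background or rest on 2 or 3 genes, so the values are given as a description. The members' median log2 difference from SED was -0.02 in ME, -0.10 in AX and -0.13 in AX+ME, where the median of all genes was -0.05, -0.04 and -0.03. The brightest 10% of genes, which hold 6 of the 10 members, had medians of -0.07, -0.12 and -0.11.

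Directions shared by both dyes are given as a description. Higher than SED in both dyes were 4 of 10 members in ME, 2 in AX and 3 in AX+ME, where 22.8%, 25.8% and 29.1% of all genes were. Lower than SED were 4, 7 and 6 members, where 43.5%, 40% and 39.1% of genes were. ME was higher than AX in 8 members and lower in 0, against 33% and 32.1% of genes. Across both activity levels the astaxanthin samples averaged lower than the placebo samples in 8 members, and higher in Prdx3 and Prdx4, against 35.8% and 31.1% of genes. The brightest 10% of genes leaned the same way: their median was 0.05 for ME minus AX and -0.09 for astaxanthin, where the members' medians were 0.06 and -0.10. Prdx6 enters these counts and medians with a saturated probe, and Prdx5 with a spot that was saturated on the Cy5 arrays of ME and AX. The Cy5 difference of Prdx5 between ME and AX, 0.04, is thus between saturated readings, and its direction there is not measured.

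**Figure D1:**
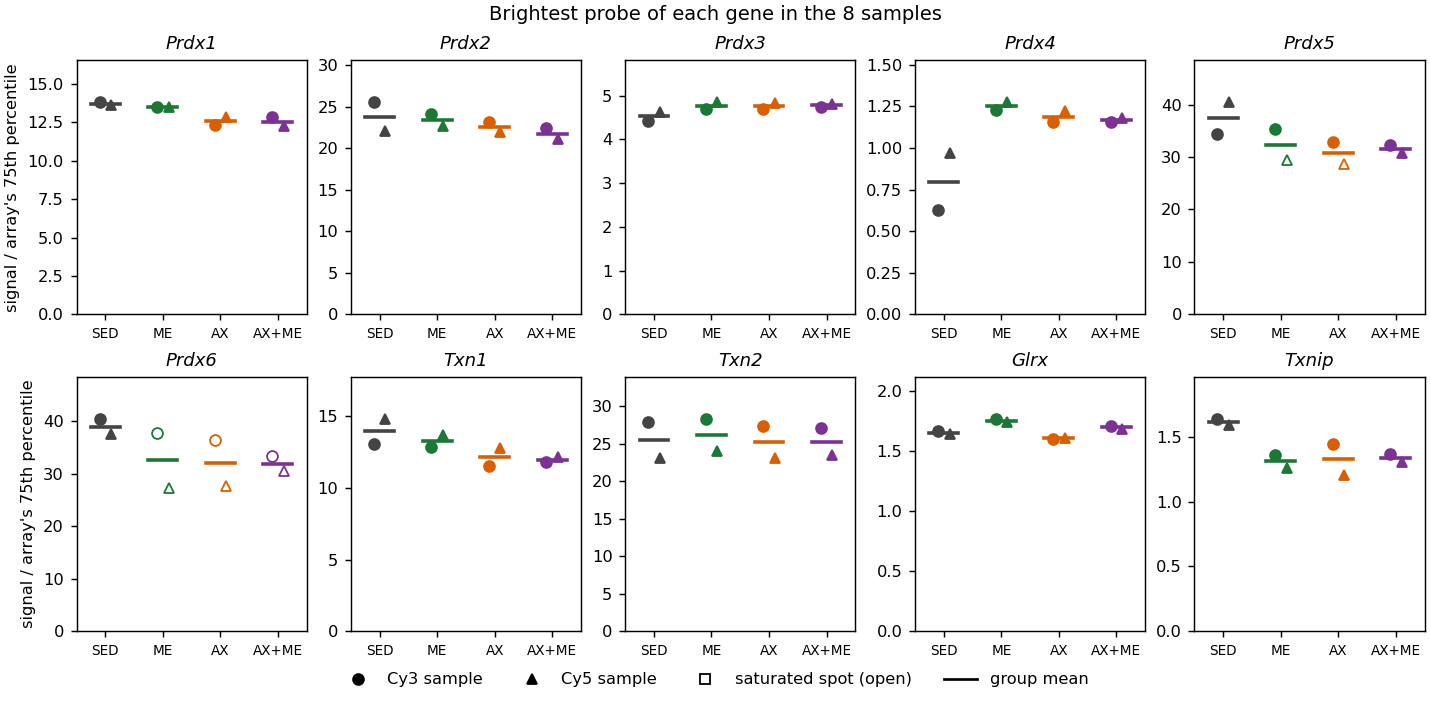
Relative signal (signal over the array's 75th percentile, linear axis from 0) of the brightest probe of each member in the 8 samples, by group; circles are Cy3 samples, triangles Cy5 samples, open symbols saturated spots and lines group means. The SED samples of Prdx4 lie below the 6 others and those of Txnip above them.

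Prdx1 and Prdx2 are the 2-cysteine peroxiredoxins of the cytosol. The main probe of Prdx1 (array column 18) read 13.8, 13.5, 12.4 and 12.9 in the Cy3 samples. Its Cy5 samples read 13.6, 13.5, 12.9 and 12.2. In both dyes the samples on astaxanthin lay below those on placebo, with no overlap, and both SED samples lay above all others. The main effect of astaxanthin, the mean of AX and AX+ME minus the mean of SED and ME, was -0.11 with a standard error (SE) of 0.041 (limma, adjusted p = 0.187). With the neighbour correction it was -0.05 (limma, adjusted p = 0.484), and AX minus SED went from -0.12 to -0.00. The second Prdx1 probe (column 49) did not show this order: it read 1.75, 1.75, 1.78 and 1.73 in Cy3 and 1.52, 1.76, 1.63 and 1.72 in Cy5. Its astaxanthin effect was 0.02 ± 0.055 (SE), so the 2 probes of Prdx1 disagree in sign.

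Prdx2 had 1 probe, in column 88, outside the dim area. It read 25.5, 24.1, 23.2 and 22.4 in Cy3 and 22.02, 22.6, 21.95 and 21.1 in Cy5. The astaxanthin samples were again the lowest in each dye, although AX and SED hardly differed in Cy5. Its astaxanthin effect was -0.09 ± 0.043 (SE; limma, adjusted p = 0.282). The largest difference from SED was that of AX+ME, -0.13 with a 95% interval of -0.29 to 0.03. With normexp on the raw signal AX and AX+ME passed at -0.28 and -0.33 (limma, adjusted p = 0.0462 and 0.0295).

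Prdx3 is the peroxiredoxin of mitochondria, and its probe was printed 10 times, which gives a measure of the spread within an array. Averaged over the spots it read 4.41, 4.70, 4.69 and 4.75 in Cy3, and 4.63, 4.84, 4.83 and 4.81 in Cy5. SED was lowest in each dye. The differences from SED were 0.08 in ME, 0.07 in AX and 0.08 in AX+ME, each with an SE of 0.050 (limma, adjusted p = 0.408, 0.397 and 0.336).

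The repeated spots disagreed more on the SED arrays than elsewhere. The SD of the log2 level over the 10 spots was 0.19 on the Cy3 array of SED and 0.17 on its Cy5 array, against 0.02 to 0.04 on the other 6 arrays. On the SED Cy3 array the 3 spots below column 70 averaged 1.96 and the 7 others 2.21. On the SED Cy5 array these averages were 2.14 and 2.23. With the spots from column 70 on, the Prdx3 differences from SED were 0.02 in ME, 0.03 in AX and 0.03 in AX+ME.

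Prdx4 is the secreted and endoplasmic reticulum peroxiredoxin, which passes oxidising power to protein disulphide isomerases. Its 1 probe, in column 50, read 0.63, 1.23, 1.158 and 1.155 in Cy3 and 0.97, 1.27, 1.22 and 1.18 in Cy5. Both SED samples lay below all 6 others, and they also differed from each other more than any other pair of a group. The log2 differences from SED were 0.68 in ME, 0.61 in AX and 0.58 in AX+ME, a fold of 1.60 for ME. Each had an SE of 0.171 and none passed (limma, adjusted p = 0.112, 0.120 and 0.103). Among ME, AX and AX+ME the differences were at most 0.10 in size. The spots around Prdx4 were lower in SED as well: their median SED gap was -0.20 in Cy3 and -0.30 in Cy5, against -0.91 and -0.34 for the Prdx4 spot. After each spot was corrected by the median of its neighbours, the differences from SED were 0.40, 0.35 and 0.32 (limma, adjusted p = 0.341, 0.343 and 0.317). Without the Cy3 sample of SED the differences were 0.39, 0.32 and 0.29, and without the Cy5 sample 0.97, 0.89 and 0.87, and limma called all 3 each time (adjusted p between 0.0145 and 0.0425). In these fits SED is 1 array, which is assumed to vary like the other groups, so the calls leave out the spread between the SED samples. With normexp on the raw signal all 3 passed as well, at 0.97, 0.80 and 0.80 (limma, adjusted p = 0.0216, 0.0290 and 0.0248). That signal lacks the detrending done by the extraction software. Relative to the array's median spot, the detrending at the Prdx4 spot was greater in SED than in the other groups by 0.32 in Cy3 and 0.46 in Cy5.

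Prdx5, a peroxiredoxin found in mitochondria, peroxisomes and the cytosol, had 1 probe in column 10. It read 34.4, 35.3, 32.9 and 32.2 in the Cy3 samples. The Cy5 samples read 40.4, 29.4, 28.6 and 30.8, and the spot was saturated in ME and AX there, so those readings are lower limits and 1 of 2 arrays of these groups measured the gene in range. The SED sample was the highest in Cy5 only, where the spots around it had a median SED gap of 0.44 against 0.45 for Prdx5. The differences from SED were -0.21, -0.28 and -0.24 as read, of which the first and second include a saturated array, with an SE of 0.136 (limma, adjusted p = 0.409, 0.270 and 0.286). The direction differed between the processed and the raw signal. Relative to the array's median spot, the detrending done by the extraction software (processed over background-subtracted raw signal) at the Prdx5 spot was greater in SED than in the other groups by 0.47 in Cy3 and 0.94 in Cy5 on the log2 scale. From the raw signal with normexp background correction the differences were 0.36, 0.32 and 0.37 (limma, adjusted p = 0.0480, 0.0430 and 0.0292), the opposite sign. Without the Cy3 sample of SED, AX and AX+ME passed at -0.48 and -0.45 (limma, adjusted p = 0.0425 and 0.0475), with SED as 1 array whose spread is taken from the other groups.

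Prdx6, the peroxiredoxin with a single working cysteine, which also acts as a phospholipase, had 4 probes. The brightest, in column 49, was saturated on all 6 arrays of ME, AX and AX+ME and on neither SED array, so neither a fold nor a direction is given for it. Its readings were 40.4 and 37.6 in SED (Cy3 and Cy5), 37.8 and 27.3 in ME, 36.4 and 27.7 in AX and 33.3 and 30.5 in AX+ME. The probe in column 20 read 22.4, 19.0, 17.8 and 18.2 in Cy3 and 26.9, 16.6, 15.3 and 16.2 in Cy5. The probe in column 78 read 11.5, 10.7, 10.6 and 10.8 in Cy3 and 11.4, 10.3, 9.42 and 10.2 in Cy5. In both of these probes the SED samples were the highest. At column 20 the detrending was greater in SED than in the other groups by 0.35 in Cy3 and 0.88 in Cy5, more than the probe's own SED gap of 0.29 and 0.75. At column 78 it differed by 0.00 and 0.01.

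The Prdx6 differences were unlike in size between probes. At column 20 they were -0.47, -0.58 and -0.52 in ME, AX and AX+ME against SED (SE 0.142; limma over 37399 probes, adjusted p = 0.162, 0.109 and 0.102). At column 78, outside the dim area, they were -0.12, -0.20 and -0.13 (SE 0.063; adjusted p = 0.328, 0.163 and 0.260 in the same limma fit). The spots around the column 20 probe had median SED gaps of 0.40 in Cy3 and 0.60 in Cy5 against its own 0.29 and 0.75, and those around the column 78 probe 0.16 and 0.21 against its own 0.11 and 0.19. The probe in column 128 was dim, between 0.06 and 0.12 on all arrays, with the Cy5 sample of SED the highest. Its differences from SED were -0.50, -0.47 and -0.26 (SE 0.212). No probe of Prdx6 or of any other member passed in any comparison. Over all probes this limma fit called 2.12% in ME, 2.36% in AX and 4.66% in AX+ME against SED, 0% among the other 3 groups, 0.203% for the interaction, 0.497% for exercise and 0.612% for astaxanthin.

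**Figure D2:**
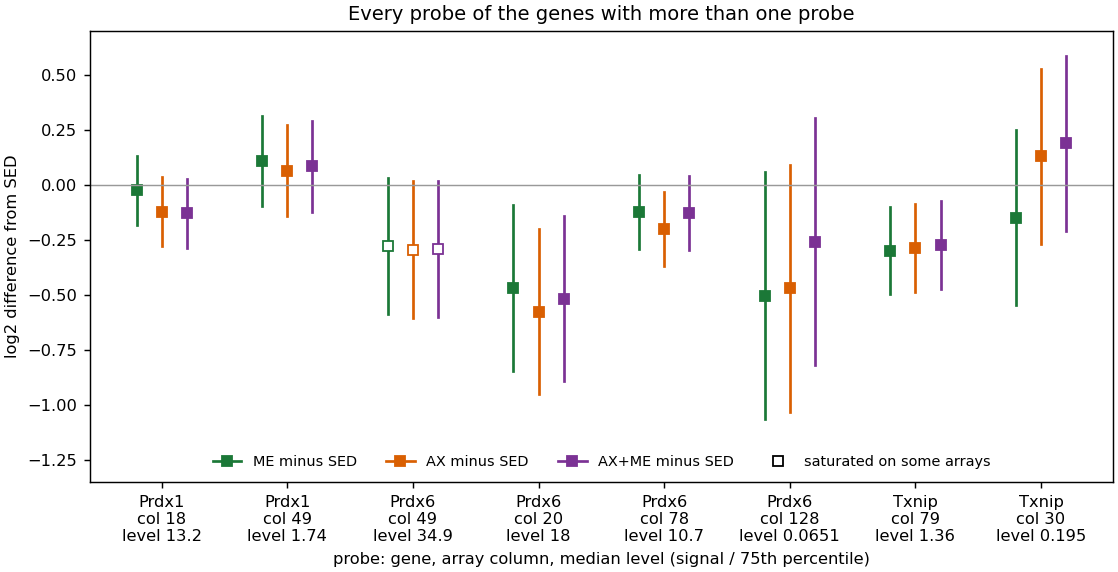
Log2 difference from SED (squares) with 95% intervals for every probe of Prdx1, Prdx6 and Txnip, labelled with the array column and the median relative signal; colours are ME, AX and AX+ME, and open squares mark the Prdx6 probe that was saturated on 6 arrays. The 3 Prdx6 probes that were not saturated lie below 0 and differ in size, the open squares have no readable direction, and the 2 probes of Prdx1 and of Txnip disagree in AX and AX+ME.

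**Figure D3:**
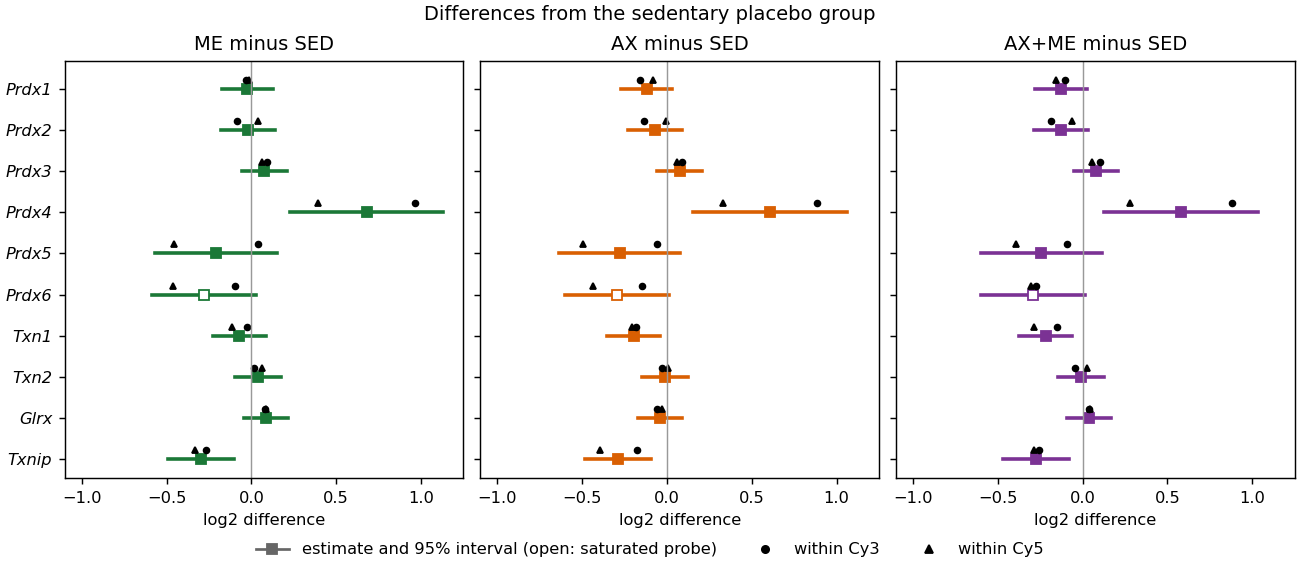
Log2 difference from SED of the brightest probe of each member (squares, with 95% intervals; open for the saturated Prdx6 probe, whose direction is not read; Prdx5 was saturated on the Cy5 arrays of ME and AX) in ME, AX and AX+ME, with the differences within Cy3 (circles) and within Cy5 (triangles). The intervals of Prdx4 lie above 0 and those of Txnip below 0 in all 3 panels and those of Txn1 below 0 in AX and AX+ME, and no member passed after adjustment over all genes.

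Txn1 encodes the cytosolic thioredoxin that reduces peroxiredoxins and other proteins. Its probe, in column 129 far from the dim area, read 13.1, 12.9, 11.5 and 11.8 in the Cy3 samples. The Cy5 samples read 14.8, 13.7, 12.8 and 12.2. In each dye both samples on astaxanthin lay below both on placebo. The main effect of astaxanthin was -0.17 ± 0.042 (SE), with a 95% interval of -0.28 to -0.06 (limma, adjusted p = 0.117). Its differences from SED were -0.07 in ME, -0.20 in AX and -0.22 in AX+ME (SE 0.060; limma, adjusted p = 0.518, 0.134 and 0.0914). The spots around Txn1 had median SED gaps of -0.01 in Cy3 and 0.09 in Cy5, against 0.12 and 0.20 for Txn1, and with the neighbour correction the astaxanthin effect was -0.16. It was negative in all 19 other fits, from -0.25 to -0.10, and passed in none. The AX+ME difference passed in 2 of these 19 fits: median scaling (-0.30, limma adjusted p = 0.0440) and normexp on the raw signal (-0.37, limma adjusted p = 0.0370).

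The order of Txn1 was shared by 3 of the 10 members. Prdx1, Prdx2 and Txn1 were lower in both astaxanthin samples than in both placebo samples of each dye. Over all genes tested 10.7% had this order, and 18.1% of the brightest 10% of genes did. None was higher on astaxanthin in this way, against 6.88% of all genes and 0.7% of the brightest. Dye-centred levels of Prdx1 and Txn1 over the 8 samples, which share their arrays, had a Pearson correlation of 0.95. Those of Prdx1 and Prdx2 had 0.79 and those of Prdx2 and Txn1 0.70. The 3 genes were grouped by their order in these same samples, so positive correlations among them are no separate result. Other pairs of members ran from -0.90 (Prdx3 and Txnip) to 0.96 (Prdx3 and Prdx4). With median scaling the medians of all genes against SED were -0.04, -0.11 and -0.12 in ME, AX and AX+ME, and -0.09 for astaxanthin. Under that scaling the astaxanthin effects of Prdx1, Prdx2 and Txn1 were -0.19, -0.17 and -0.25. With quantile normalization they were -0.04, -0.01 and -0.10.

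Txn2, the thioredoxin of mitochondria that reduces Prdx3 and Prdx5, was the member with the smallest range between groups, 0.05 on the log2 scale. Its probe in column 122 read 27.98, 28.3, 27.5 and 27.2 in Cy3 and 23.1, 24.1, 23.1 and 23.5 in Cy5. The dye effect of -0.24, Cy5 minus Cy3, was larger than any difference between groups. The 95% interval of AX+ME minus SED was -0.14 to 0.13, and a difference inside it was not detectable here.

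Glrx encodes the cytosolic glutaredoxin. Its probe in column 111 read 1.67, 1.77, 1.61 and 1.71 in Cy3 and 1.64, 1.75, 1.61 and 1.69 in Cy5. The 4 groups stood in the same order in both dyes, ME above AX+ME above SED above AX, and the 2 samples of a group never overlapped with those of another. The main effect of exercise was 0.08 ± 0.035 (SE; limma, adjusted p = 0.283), and the largest pairwise difference, ME minus AX, was 0.13 ± 0.049 (limma, adjusted p = 0.693). Glrx was the only one of 10 members that was higher with exercise in both dyes without overlap, against 3.94% of all genes, and none was lower, against 6.21%. With normexp on the raw signal the exercise effect was -0.01, the opposite sign.

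Txnip had the largest moderated F over the 4 groups among the members, 7.63, which was at percentile 82.5 of all genes tested. The main probe, in column 79, read 1.64, 1.36, 1.44 and 1.37 in Cy3, and 1.59, 1.26, 1.21 and 1.30 in Cy5. Both SED samples lay above all 6 others. The differences from SED were -0.30 in ME, -0.29 in AX and -0.27 in AX+ME, each with an SE of 0.073, and none passed (limma, adjusted p = 0.108, 0.103 and 0.0888). Among ME, AX and AX+ME the differences were at most 0.03 in size. The spots around it were also higher in SED, with median gaps of 0.13 in Cy3 and 0.25 in Cy5 against 0.23 and 0.34 for Txnip, and after the neighbour correction the differences were -0.07, -0.10 and -0.15 (limma, adjusted p = 0.497, 0.321 and 0.149). AX+ME passed with median scaling at -0.36 and with normexp at -0.35 (limma, adjusted p = 0.0436 and 0.0438), and AX with normexp at -0.40 (limma, adjusted p = 0.0410).

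The second Txnip probe, in column 30, was dim and did not follow the first. It read 0.17, 0.17, 0.23 and 0.22 in Cy3 and 0.21, 0.16, 0.19 and 0.20 in Cy5. SED was the lowest in Cy3 and the highest in Cy5. The differences were -0.15, 0.13 and 0.19 with an SE of 0.15. Of 16051 other named genes, 229 had a dye-centred pattern over the 8 samples that correlated with the main Txnip probe above 0.95. The nearest were Zfp180 (Pearson r = 0.988), Esam (0.987), Gxylt2 (0.985), Vash1 (0.984) and Mapre3 (0.983), over 8 samples that share their arrays. Their lowest array columns were 71, 78, 41, 23 and 19, in that order.

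**Figure D4:**
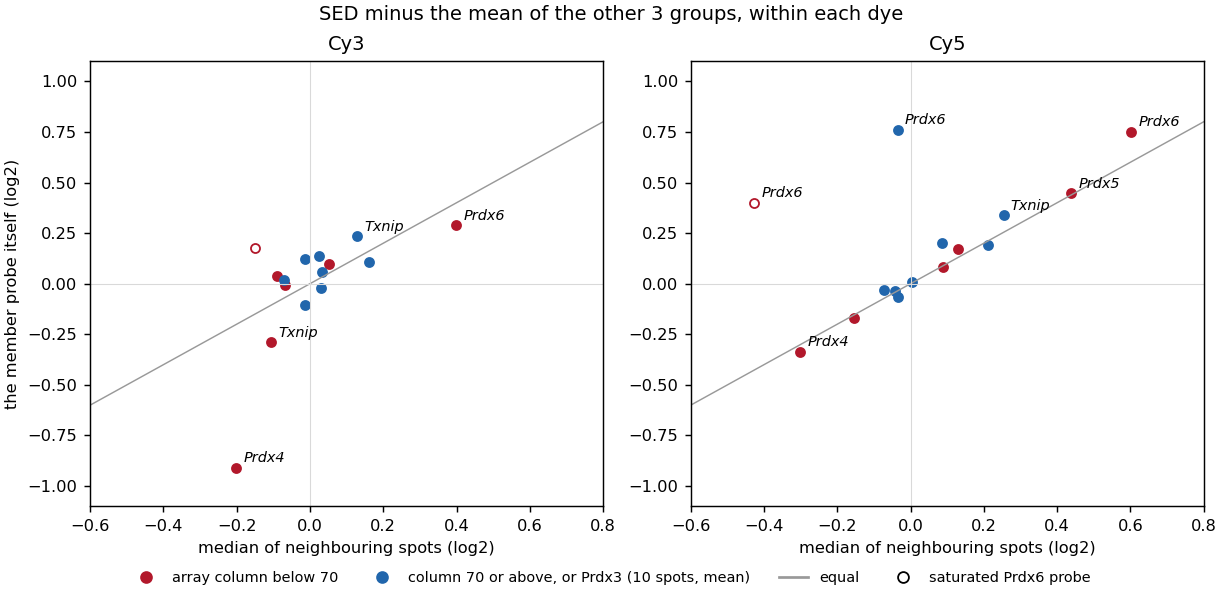
SED gap (log2 level in SED minus the mean of the other 3 groups) of each member probe against the median SED gap of the spots within 4 rows and 4 columns, in Cy3 (left) and Cy5 (right); red marks array columns below 70, the open symbol the saturated Prdx6 probe, and the grey line equal values. In Cy5 the gaps of Prdx4 and Prdx5 lie near the line, and in Cy3 the gap of Prdx4 is far below it.

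The other genes of the system were taken from 6 lists with 45 genes, of which 44 were tested. Of these, limma called 2 higher and 0 lower in ME against SED, 2 higher and 1 lower in AX, and 3 higher and 3 lower in AX+ME, and 0 in the other 6 comparisons. Over all genes the shares called higher were 1.97%, 2.16% and 3.84% and the shares called lower 1.12%, 1.44% and 3.34%. The lists' median differences from SED were -0.00, -0.03 and -0.04, where those of all genes were -0.05, -0.04 and -0.03. Of the 6 genes called, 4 lay below column 70.

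Txnrd1, the cytosolic thioredoxin reductase that recharges Txn1, was the only called gene of the 4 reductases. It read 3.88, 6.01, 6.01 and 5.74 in Cy3 and 4.49, 6.25, 6.08 and 5.95 in Cy5, in column 53. It was higher than in SED by 0.55, 0.53 and 0.48 (SE 0.069; limma, adjusted p = 0.0372, 0.0384 and 0.0376). The median SED gaps of the spots around it were -0.33 in Cy3 and -0.53 in Cy5 against its own -0.61 and -0.44, and the neighbour correction left 0.14, 0.09 and 0.03 (limma, adjusted p = 0.529, 0.668 and 0.867). Its mitochondrial counterpart Txnrd2, in column 93, differed from SED by -0.04, -0.10 and -0.12 and did not pass.

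Srxn1, the sulfiredoxin that repairs overoxidised peroxiredoxins, was the only called gene of the 4 in the list of repair enzymes and sestrins. In column 37 it read 7.52, 11.1, 10.3 and 11.1 in Cy3 and 8.00, 11.4, 10.6 and 10.7 in Cy5. It was higher than in SED by 0.53, 0.43 and 0.49 (SE 0.060; limma, adjusted p = 0.0299, 0.0423 and 0.0298). The spots around it had a median SED gap of 0.04 in Cy3 and -0.38 in Cy5 against its own -0.52 and -0.44. With the neighbour correction it stood at 0.37, 0.27 and 0.31 and no longer passed (limma, adjusted p = 0.267, 0.327 and 0.226).

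Of 15 thioredoxin-like proteins, 1 was called higher and 2 lower in AX+ME against SED, and 1 lower in AX. Tmx1, a thioredoxin of the endoplasmic reticulum membrane, differed by 1.04 in ME, 0.96 in AX and 1.00 in AX+ME (column 40; limma, adjusted p = 0.0563, 0.0574 and 0.0445). Txndc16 differed by -0.41 in ME, -0.47 in AX and -0.42 in AX+ME (column 45; limma, adjusted p = 0.0515, 0.0400 and 0.0391). Txnl1 differed by -0.34, -0.34 and -0.36 in the same order (column 71; limma, adjusted p = 0.0587, 0.0544 and 0.0414). For the called differences, neighbour correction left 0.87 for Tmx1 in AX+ME, -0.35 and -0.33 for Txndc16 in AX and AX+ME, and -0.09 for Txnl1 in AX+ME. None of these passed (limma, adjusted p = 0.0631, 0.224, 0.188 and 0.343). Of the 7 alpha-arrestins and Mlx factors, Arrdc3, a relative of Txnip, was called lower in AX+ME at -0.43 (column 73; limma, adjusted p = 0.0308). It stood at -0.23 in ME and -0.25 in AX. In AX+ME it still passed at -0.37 after the neighbour correction (limma, adjusted p = 0.0439). Its relative Arrdc4 had 2 probes, and neither passed. The single spot in column 9 differed from SED by 0.50, 0.42 and 0.38 in ME, AX and AX+ME (SE 0.311). Its differences were 1.06, 0.88 and 0.94 within Cy3 and -0.06, -0.04 and -0.18 within Cy5. The other Arrdc4 probe, printed 10 times from column 19 on, differed by -0.18, -0.21 and -0.30 (SE 0.075). None of the 3 other glutaredoxins or of 11 thioredoxin partners and NADPH-supplying enzymes passed. Fits without 1 sample of ME, AX or AX+ME leave that group with 1 array, and their calls for the 44 genes are not read here.

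**Figure D5:**
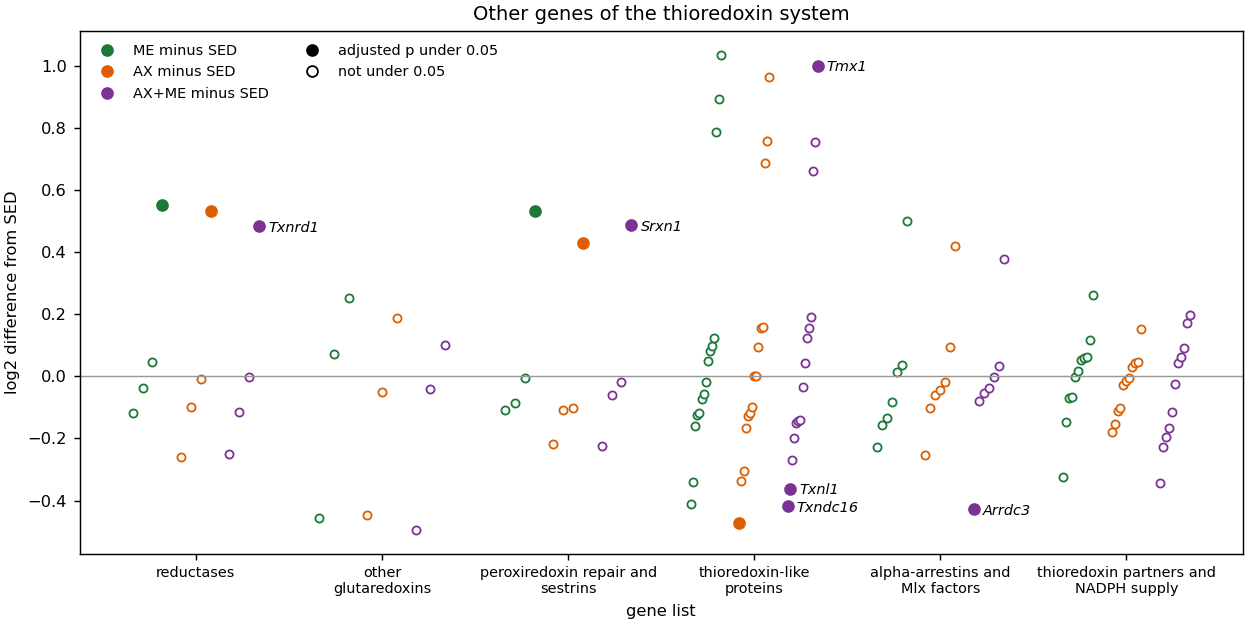
Log2 difference from SED of the 44 tested genes in 6 lists of the thioredoxin system, in ME, AX and AX+ME; filled symbols have an adjusted p under 0.05 (limma, over all genes) and open symbols do not. Txnrd1 and Srxn1 are filled in all 3 comparisons, Txndc16 in AX and AX+ME, and Tmx1, Txnl1 and Arrdc3 in AX+ME.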

How the data were processed

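Hippocampal RNA of 8 samples was measured on Agilent 8x60K arrays. The authors deposited scanner files, made with Feature Extraction version 11.0.1.1 according to the submitters' processing notes. Their processed signal is an intensity on a linear scale from which, per the file headers, background and a spatial trend were removed on each array, with no scaling across arrays. In the deposited list of values for the whole series the same numbers appear without decimals. The probe design refers to mouse build mm9, per the file headers. The own-dye intensity was scaled by the 75th percentile of the array's non-control spots, floored at 0.01 and put on a log2 scale, the unit of all differences computed from the deposited values. Spots of a probe were averaged. A probe was kept where, in at least 1 group, both arrays showed it well above background (37399 probes), 48 probes with a non-uniform spot were left out, and the brightest probe stood for its gene. Saturated spots were kept.

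All 8 samples entered 1 limma model (limma 3.58.1, R 4.3.3) with group and dye as terms, on 3 residual and 1.58 prior degrees of freedom, with two-sided p-values adjusted by Benjamini-Hochberg over 27155 genes and a threshold of 0.05. Dye is the replicate number here, so the term is also the replicate block. Every probe was also fitted, with adjustment over 37399 probes. The model was tested on simulated data for AX+ME minus SED over 27155 genes with each gene's own residual spread. It called 62 of 100 genes changed by 1 on the log2 scale, 84 of 100 changed by 2 and 10 of 26955 unchanged genes. The noise was drawn independently for each gene, so shifts shared by neighbouring spots were not part of it. Both sizes exceed every member difference of the main fit, so the simulation does not show how often such differences would be called. The alternatives were normexp, quantile and median scaling, other filters and probe rules, array columns from 70, no dye term, the deposited list, an intensity trend and leaving out each sample. The planned mean signal is not used here, and normexp (offset 50) was run on the median signal. A correction by neighbouring spots was chosen after seeing the data. The members and lists were chosen with earlier results of these data known, and the named list genes are at most 6 called genes per comparison with Txnrd1, Txnrd2, Srxn1, Arrdc4 and Nnt in any case. Nnt was not analysed here. With 2 arrays per group, their number limits the precision. Figures were drawn with matplotlib 3.10.9 in Python 3.11.15.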

Additional observations from a re-analysis of the deposited data

Results flagged for a closer look

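For Prdx4 the exercise difference had opposite signs on the 2 diets in both dyes: 0.68 for ME minus SED and -0.03 for AX+ME minus AX. Its astaxanthin difference did so as well, at 0.61 for AX minus SED and -0.10 for AX+ME minus ME. The test of this difference, the interaction, was -0.71 ± 0.242 (SE) and did not pass (limma, adjusted p = 0.306). All 4 differences share the SED or the AX+ME samples, and the gap of Prdx4 lies in SED. Without the Cy3 sample of SED the interaction was -0.42 and without the Cy5 sample -0.99, and both passed (limma, adjusted p = 0.0486 and 0.0317), in fits where SED is 1 array and the spread comes from the other groups. With the neighbour correction it was -0.43 (limma, adjusted p = 0.645).

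For the main Txnip probe the astaxanthin difference was -0.29 for AX minus SED and 0.03 for AX+ME minus ME, with the same sign in both dyes within each comparison. The interaction was 0.31 ± 0.104 (SE) and did not pass (limma, adjusted p = 0.297). The second Txnip probe gave 0.21 ± 0.212 (SE). With the neighbour correction the interaction of the main probe was 0.02 (limma, adjusted p = 0.946).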

How the results depend on the processing

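Across 19 alternatives, the count of called members stayed at 0 in AX+ME minus ME, AX+ME minus AX and ME minus AX. Against SED, normexp on the raw signal called 2 members in ME, 4 in AX and 5 in AX+ME, with medians of all genes at -0.14, -0.14 and -0.13, and median scaling called 2 in AX+ME. Over all genes, the 19 alternatives called from 0 to 4861 in ME, 0 to 5004 in AX and 0 to 5825 in AX+ME. The shares of genes called under normexp and under median scaling alone are not given here. The member counts are therefore a description and not a result about the members. Columns from 70 on held 7 of the members. With 1 sample left out, members passed only where it was a SED sample, and they were Prdx4 or Prdx5. SED is then 1 array, assumed to vary like the other groups. Prdx5 turned sign under normexp, to 0.36 in ME, 0.32 in AX and 0.37 in AX+ME, and the saturated Prdx6 probe read 0.22, 0.16 and 0.16 there without passing (limma, adjusted p = 0.191, 0.305 and 0.294). The cause was not tested. Of 1683 other member values with a test, 113 had the opposite sign, and 3 of those passed, the ones of Prdx5. Of 180 values within a dye, 48 moved by more than the residual SD.

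Of the 44 list genes, normexp called 8, 18 and 18 in ME, AX and AX+ME against SED, the intensity trend 8, 9 and 11, columns from 70 on 0, 0 and 2, and the neighbour correction 0, 0 and 1. The filter for all 8 arrays called 7 in ME and 6 in AX, no filter 6 in AX, and median scaling 6 in AX and 12 in AX+ME. The counts also changed with the sample left out, in fits with 1 array in a group, and those counts are not read here. For the interaction normexp called 2, for exercise 3 and for astaxanthin 4. The intensity trend called 1 for exercise and 2 for astaxanthin, and no filter 1 for astaxanthin. Leaving out 1 sample gave 0 to 8, 0 to 10 and 0 to 6 in these. Without the replicate block (no term for dye) 0 members were called in all 9 comparisons, and 4 and 3 list genes in ME and AX+ME against SED. Over all genes the alternatives called from 0 to 2888 for the interaction, 0 to 3044 for exercise and 0 to 3492 for astaxanthin. Without each setting's own share of genes, the list counts are a description and not a result about the lists. The cause was not tested for any of these counts.

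Columns below 70, with the dim areas of SED, hold both Prdx1 probes, Prdx4, Prdx5, 2 of the 4 Prdx6 probes and the second Txnip probe. Txnrd1, Srxn1, Tmx1 and Txndc16 lie there as well. The SED gaps of these probes were not all like those of the spots around them. Saturation limits Prdx5 and Prdx6.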
